A study of Mus musculus with 14 samples.

Results

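Macrophage RNA was compared between tumours grown from 4T1 cells that had been exposed to a ROCK inhibitor before injection and tumours grown from vehicle-exposed 4T1 cells, 14 days after injection. The 4T1 line is a mouse mammary carcinoma line from the Balb/c strain, and the tumours were raised in the fat pads of Balb/c mice. The inhibitor was GSK269962A, a small molecule that blocks the kinases ROCK1 and ROCK2, given to the cultured tumour cells at 5 µM for 5 days. The other tumour cells received DMSO, its solvent. The macrophages themselves received neither agent in culture. "GSK" and "DMSO" below name these groups, each with 4 libraries numbered 1 to 4 as in the labels. They are 8 of the 14 libraries of the study, the other 6 being day 8 macrophages from the same kinds of tumour, with 3 libraries in each group. Cells carrying F4/80, a surface receptor of mouse macrophages, were pulled from dissociated tumours with antibody-coated magnetic beads over 2 columns in succession. Whether the libraries come from different mice is not stated in the labels, and p-values here reflect only how far these samples spread. Of 24556 genes in the deposited table, 11886 were kept because their value was at least 10 unlogged (3.32 on the log2 scale) in 3 or more of the 14 libraries. Of these, 10534 are protein-coding, and 8149 of the protein-coding genes share under 10% of their 31-base words with any other gene. Most of their sequence thus has no copy elsewhere, but reads of a shared stretch can still be assigned to another gene. The 8149 genes are called unique-sequence genes below.

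Macrophages recruited to tumours arise largely from blood monocytes and carry receptors that read antibody, dying cells and microbial molecules, a lysosomal system that digests what they take up, and secreted signals that act on other immune cells. Small GTPases such as RhoA work as membrane switches that, through the ROCK kinases and formins, set actomyosin tension, adhesion and movement. In macrophages, the transcription factor Klf2 is known as a brake on inflammatory gene expression, while the inflammatory caspases Casp1 and Casp4 belong to the machinery that matures interleukin-1 and opens the cell membrane during pyroptosis.

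The promoters of 4 genes that the results turn on are shown because they lie on genes that moved in opposite directions: Klf2 and Rhob, both lower in the GSK group, and Casp1 and Casp4, neighbours on chromosome 9 that were both higher. Each window of 300 bases spans the RefSeq gene start, in GRCm38.p6, and is printed 5′ to 3′ on the gene's own strand, with CG dinucleotides in capitals. Klf2 lies at chr8:72318812-72319111, Rhob at chr12:8499960-8500259, Casp1 at chr9:5298267-5298566 and Casp4 at chr9:5308599-5308898.
Klf2: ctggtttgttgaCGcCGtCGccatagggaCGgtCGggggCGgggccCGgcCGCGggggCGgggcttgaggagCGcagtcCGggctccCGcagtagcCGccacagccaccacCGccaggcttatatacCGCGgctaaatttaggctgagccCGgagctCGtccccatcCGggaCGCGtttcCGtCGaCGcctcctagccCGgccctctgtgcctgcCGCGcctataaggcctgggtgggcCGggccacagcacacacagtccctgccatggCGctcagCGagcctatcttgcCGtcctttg
Rhob: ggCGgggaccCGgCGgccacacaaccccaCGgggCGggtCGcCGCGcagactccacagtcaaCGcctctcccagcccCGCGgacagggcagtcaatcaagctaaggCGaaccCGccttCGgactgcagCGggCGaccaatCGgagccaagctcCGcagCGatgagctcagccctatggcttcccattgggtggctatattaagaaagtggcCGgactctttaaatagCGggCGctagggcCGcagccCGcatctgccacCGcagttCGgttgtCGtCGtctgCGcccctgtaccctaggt
Casp1: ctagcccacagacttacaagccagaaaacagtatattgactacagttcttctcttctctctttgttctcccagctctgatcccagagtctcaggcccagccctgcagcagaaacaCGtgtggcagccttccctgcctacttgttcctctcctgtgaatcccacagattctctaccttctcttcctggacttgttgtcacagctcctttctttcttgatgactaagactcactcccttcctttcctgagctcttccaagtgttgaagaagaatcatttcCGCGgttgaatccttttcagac
Casp4: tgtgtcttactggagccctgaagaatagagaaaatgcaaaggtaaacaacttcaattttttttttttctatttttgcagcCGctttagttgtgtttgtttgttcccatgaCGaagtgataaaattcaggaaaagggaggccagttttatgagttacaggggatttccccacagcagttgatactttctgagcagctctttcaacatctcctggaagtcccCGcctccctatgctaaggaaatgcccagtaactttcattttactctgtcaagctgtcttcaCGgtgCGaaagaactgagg
The Klf2 window holds 32 CG dinucleotides and the Rhob window 29, while the Casp1 window holds 3 and the Casp4 window 5. The GC content of these windows was 69.3%, 65.3%, 48% and 42%, in the same order. The 4 genes were chosen with their changes known, and CG counts of other promoters are not given. The counts therefore cannot show whether promoter CG content goes with the direction of change. The consensus site of Mef2 transcription factors, which reads the same on both strands, was searched, and 3.26% of all 27025 RefSeq promoter windows hold it. It occurs in the Klf2 window and in none of the other 3 windows. A match of letters is a description and not a measured binding site.

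The libraries resembled one another closely. Pearson correlations between libraries were 0.974 to 0.994 within the day 14 groups and 0.958 to 0.989 between them. The GSK libraries correlated with one another at 0.9905 to 0.9935 and the DMSO libraries at 0.9737 to 0.9873. DMSO library 3 correlated at 0.9859, 0.9887 and 0.9861 with GSK libraries 1 to 3. Its correlations with DMSO libraries 1, 2 and 4 were lower, at 0.9796, 0.9825 and 0.9846. Technical properties moved with the groups. Reads of an overlapping pair of ribosomal RNA gene models were assigned to AY036118 in all 4 GSK libraries but only in DMSO libraries 1 and 3, so the calls are also counted within the libraries where AY036118 was high (the AY036118-high libraries) and with this assignment as a term in the model. The median deviation of low-GC genes minus that of high-GC genes was -0.34 to -0.01 on the log2 scale in the DMSO and 0.02 to 0.20 in the GSK libraries, so every GSK library lay above every DMSO library, and the calls are also counted after the GC trend of every library had been removed. The mean of the 4T1 epithelium markers was also lower in the GSK group, at 4.94 to 5.13 on the log2 scale against 5.21 to 5.66. The deposited table holds no counts, so the depth behind each value is unknown.

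Between the groups, 606 genes were higher and 681 lower in GSK macrophages, out of 11886 (10.8% called: 5.1% higher, 5.73% lower) at a limma adjusted p under 0.05 (Benjamini-Hochberg over all kept genes). Among the unique-sequence genes, 409 were higher (5.02%) and 432 lower (5.3%), 10.3% in all. The median log2 change was 0.67 over the higher ones and -0.64 over the lower ones, so the typical change was modest. The number of calls depended on single libraries. It fell to 221 without GSK library 4 and to 327 without DMSO library 2, and lay between 648 and 825 without DMSO library 1 or 4 or GSK library 1, 2 or 3. Without DMSO library 3 it rose to 1553. Of the 841 unique-sequence calls, 53 of the higher and 64 of the lower passed in every one of the 8 fits that left out 1 day 14 library. Within the libraries with AY036118 high, which leave 4 GSK and 2 DMSO libraries on day 14 and in which 7.24% of all kept genes were called, 220 of the higher and 184 of the lower passed, and all 409 and 432 kept their sign. The same libraries had helped to make the calls, so the kept signs are not independent support. With the AY036118 assignment as a term in the model, 362 of the 11886 genes passed, and 384 passed once the mean of the 4T1 epithelium markers entered the model. The part of either in the calls was not tested.

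**Figure D1:**
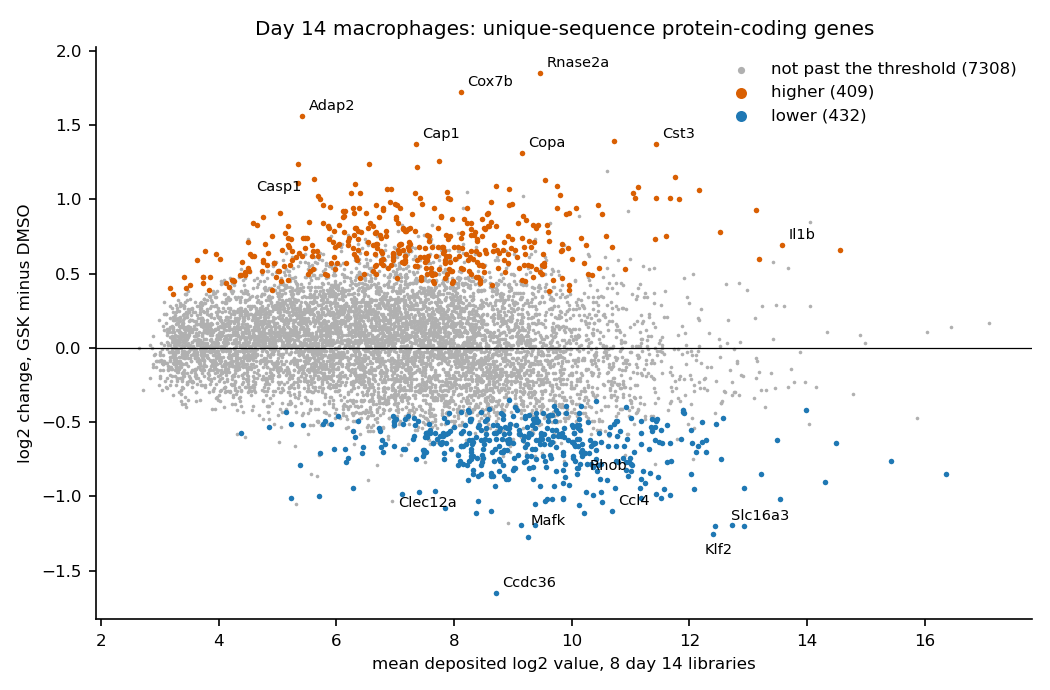
Day 14 log2 change (GSK minus DMSO, y axis) against the mean deposited log2 value over the 8 day 14 libraries (x axis) for the 8149 unique-sequence protein-coding genes, of which 11.5% had no overlap between groups in the upward and 10.4% in the downward direction. Orange points mark the 409 higher genes and blue points the 432 lower genes (limma adjusted p under 0.05), grey the rest. The higher genes sit at lower levels than the lower genes, with median levels of 7.36 and 9.30.

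The leading genes were taken from unique-sequence genes past the threshold, with no overlap between groups and an unlogged mean of at least 50. Their lack of overlap was thus set by the choice. The largest rise among them was in Rnase2a, a member of the eosinophil-associated ribonuclease family. Its log2 values were 8.88, 7.27, 9.42 and 8.55 in DMSO libraries 1 to 4 and 10.42, 9.94, 11.14 and 10.04 in GSK libraries 1 to 4, a log2 change of 1.85 (SE 0.38, adjusted p = 0.00987). Every GSK library was above every DMSO library. Adap2, a regulator of Arf GTPases at the membrane, went from 4.31, 4.72, 4.82 and 4.72 to 5.84, 5.77, 6.29 and 6.90, a log2 change of 1.56 (SE 0.21, adjusted p = 0.00132). Cap1, which returns actin monomers to the polymerising pool, read 6.26, 6.52, 7.10 and 6.83 in the DMSO and 8.10, 7.91, 7.78 and 8.40 in the GSK libraries, a log2 change of 1.37 (SE 0.18, adjusted p = 0.00132). Neither of these genes had overlapping groups. Cst3, the secreted protease inhibitor cystatin C, rose from 10.37, 10.48, 11.21 and 10.90 to 12.02, 11.92, 12.17 and 12.34, a log2 change of 1.37 (SE 0.26, adjusted p = 0.00758). DMSO library 3 was the highest DMSO library for Cst3 and still below the lowest GSK library. Retnla, a secreted product of alternatively activated macrophages, read 10.13, 10.03, 10.18 and 9.78 in the DMSO and 10.44, 11.73, 12.65 and 10.86 in the GSK libraries, a log2 change of 1.39 (SE 0.35, adjusted p = 0.0234). The GSK libraries spread widely for Retnla, from just above the DMSO range in library 1 to far above it in library 3.

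Other genes in the same leading set were Tiparp, an ADP-ribosyltransferase induced by the aryl hydrocarbon receptor (1.26), Mgst1, a microsomal glutathione transferase (1.24), and Rmc1, part of the Mon1-Ccz1 complex that activates Rab7 on late endosomes (1.24), each given as a log2 change. Ganab, the catalytic subunit of the glucosidase that trims new glycoproteins in the endoplasmic reticulum, rose by 1.22 and Fut8, which adds core fucose to N-glycans, by 1.11 on the log2 scale. Of the 15 genes with the largest rise, 10 passed in every fit that left out 1 day 14 library, and 13 passed within the AY036118-high libraries (lost for Csf2ra and Retnla, adjusted p from 0.0565 to 0.102), 13 with that assignment as a term and 15 after GC trend removal. The number that lost the call is in brackets: it was lost without GSK library 4 (4), DMSO library 2 (2), DMSO library 4 (2), GSK library 2 (2), DMSO library 1 (1), GSK library 1 (1) and GSK library 3 (1), with adjusted p up to 0.114.

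The leading fallers were taken by the same rule, so lack of overlap was a condition for them too. Among the genes that fell, Klf2 combined a high level with a large change. Klf2 lies on chromosome 8 at 72319033 to 72321656 on the plus strand in GRCm38. Its log2 values were 12.80, 13.34, 12.66 and 13.31 in DMSO libraries 1 to 4 and 11.78, 11.96, 11.99 and 11.37 in GSK libraries 1 to 4, a fall of 1.25 on the log2 scale (2.38-fold lower, SE 0.23, adjusted p = 0.00694). The lowest DMSO library exceeded the highest GSK library. Mafk, a small Maf protein that pairs with basic leucine zipper factors on antioxidant and heme-responsive genes, read 9.91, 10.03, 9.77 and 9.89 in the DMSO and 9.01, 8.88, 8.99 and 8.52 in the GSK libraries. Its log2 change was -1.05 (SE 0.14, adjusted p = 0.00132), and both groups were tight. Ccl4, a chemokine that attracts leukocytes, went from 11.22, 11.46, 10.74 and 11.52 to 10.23, 10.11, 10.23 and 9.96, a log2 change of -1.10 (SE 0.19, adjusted p = 0.00548). Slc16a3, the lactate exporter MCT4, went from 13.22, 13.27, 12.58 and 13.06 to 11.73, 12.08, 11.97 and 11.55, a log2 change of -1.20 (SE 0.19, adjusted p = 0.0038). Lfng, a glycosyltransferase that modifies Notch receptors, read 10.24, 10.17, 9.61 and 9.84 in the DMSO and 8.84, 8.87, 8.99 and 8.41 in the GSK libraries, a log2 change of -1.19 (SE 0.17, adjusted p = 0.00208). For Ccl4, Slc16a3 and Lfng, DMSO library 3 was the lowest of its group and remained above all GSK libraries.

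**Figure D2:**
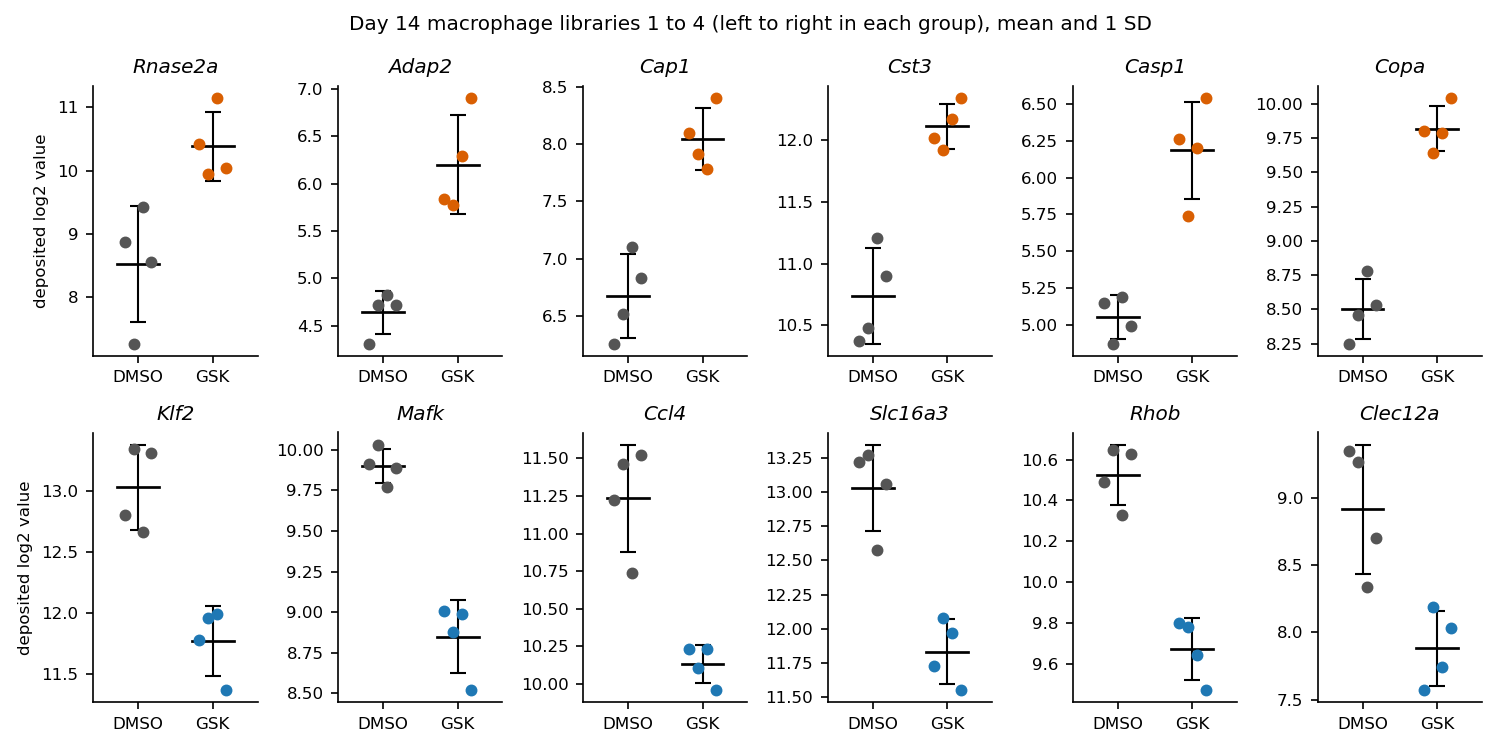
Deposited log2 values (y axis, one panel per gene) of 12 genes in the 4 DMSO and 4 GSK libraries of day 14, one point per library, with the group mean as a line and 1 SD as a bar. The lower row of fallers and upper row of risers show no overlap between groups in any of the 12 panels. Lack of overlap was a condition in choosing the leading genes among them.

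The other leading fallers were Ccdc36, a gene of meiotic recombination (-1.65), Bcl7c, a subunit of the BAF chromatin remodelling complex (-1.27), Gys1, glycogen synthase (-1.19), Ap1s1, a clathrin adaptor subunit (-1.11), Atp2a3, a calcium pump of the endoplasmic reticulum (-1.11), Timm22, an inner-membrane translocase of mitochondria (-1.10), Slc17a9, the vesicular ATP transporter (-1.08), and Dhx15, an RNA helicase (-1.04), each given as a log2 change. Akap5, a kinase anchoring protein (-1.20), and Lrrc17 (-1.19) also fell, but their values had a Pearson correlation of 0.998 over the 14 libraries, so the pair may not be separate results. They share 1.62% and 4.59% of their words with other genes, and both are counted among the 15 largest falls. When 1 day 14 library was left out, 10 of the 15 genes with the largest fall kept the call throughout. It was lost, with the number of genes in brackets, without GSK library 4 (5), DMSO library 2 (2), DMSO library 1 (1) and DMSO library 4 (1), with adjusted p up to 0.0972, and 14 passed within the AY036118-high libraries (lost for Atp2a3, adjusted p = 0.105), 13 with that assignment as a term and 15 after GC trend removal.

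Genes that mark macrophages moved in both directions. Of 17 kept core macrophage genes (52.9% called, beside 10.8% over all kept genes), 6 rose and 3 fell, with a median log2 change of 0.45 against 0.02 over all kept genes, and 5 against 2 had groups that did not overlap (22% of all genes did not). Adgre1, which encodes the F4/80 antigen used to isolate the cells, rose by 0.70 (SE 0.21, adjusted p = 0.0413) on the log2 scale, from 9.73, 9.01, 9.89 and 9.34 to 10.16, 10.06, 10.23 and 10.31. The call was lost within the AY036118-high libraries (log2 change 0.38, adjusted p = 0.108). Cd68, a lysosomal glycoprotein (1.04), and Tyrobp, the adaptor of activating myeloid receptors (0.96), rose on the log2 scale, while Aif1, an actin-bundling protein of macrophages (-0.62), and the lysosomal membrane protein Laptm5 (-0.64) fell. From the complement list, of which 3 rose and 3 fell, the very abundant C1qa, a chain of the C1q complex, fell as well (-0.85, with overlapping groups). The other C1q chains did not pass by limma: C1qb (0.03, adjusted p = 0.951) and C1qc (0.11, adjusted p = 0.661). Csf1r, the receptor that macrophages need for survival, read 12.53, 11.20, 12.06 and 11.54 in the DMSO and 12.32, 11.97, 12.35 and 12.47 in the GSK libraries and did not pass (log2 change 0.45, SE 0.22, adjusted p = 0.197; -0.02 within the AY036118-high libraries). The summed unlogged level of the core list was 88339 to 110305 in the DMSO and 94831 to 104793 in the GSK libraries, so the ranges overlapped. The call held without each day 14 library in turn for none of these 6 called genes. It did not hold, with the number of genes in brackets, without DMSO library 2 (6), GSK library 4 (6), DMSO library 4 (5), GSK library 1 (5), GSK library 3 (5), GSK library 2 (4) and DMSO library 1 (3) (adjusted p up to 0.178), and 0 passed within the AY036118-high libraries (adjusted p from 0.0997 to 0.19), 0 with that assignment as a term and 4 after GC trend removal.

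Secreted and lysosomal protein handling showed its changes in a few members. Of 16 kept cathepsins and cystatins (25% called, beside 10.8% over all kept genes), 4 rose and none fell by limma (1 fell at an unadjusted p under 0.05), with a median log2 change of 0.36. Beside Cst3 these were the cysteine proteases Ctss (0.66, SE 0.15, adjusted p = 0.0161), Ctsh (1.09, SE 0.27, adjusted p = 0.0226) and Ctsk (0.79, SE 0.21, adjusted p = 0.0291). Ctss is an elastin- and invariant chain-cleaving protease and was highly expressed, at 14.44, 13.97, 14.47 and 14.06 in the DMSO and 14.83, 14.83, 14.83 and 15.08 in the GSK libraries. Of 46 lysosomal hydrolases and membrane proteins (15.2% called), 5 rose and 2 fell, and the median was -0.07. The mannosidase Man2b1 went from 9.50, 8.93, 9.42 and 9.25 in the DMSO to 10.31, 9.89, 10.20 and 10.47 in the GSK libraries, a log2 change of 0.94 (SE 0.17, adjusted p = 0.00663), with no overlap between groups. Tpp1, a tripeptidyl peptidase (0.90), and the sialic acid transporter Slc17a5 (0.62) also rose on the log2 scale, while the progranulin gene Grn fell (-0.76). Of 20 kept genes of the vacuolar proton pump, which acidifies these compartments, 1 rose and 4 fell (25% called). The riser was Atp6v0d2 (1.04, SE 0.26, adjusted p = 0.0238) and the fallers with unique sequence were Atp6v0b (-0.77, SE 0.16, adjusted p = 0.0113), Atp6v0a1 (-0.64, SE 0.17, adjusted p = 0.0306) and Atp6ap1 (-0.51, SE 0.16, adjusted p = 0.0468). Tfe3, a transcription factor of lysosomal genes, fell from 10.09, 10.22, 9.55 and 10.10 to 9.42, 9.29, 9.31 and 9.04, a log2 change of -0.72 (SE 0.15, adjusted p = 0.00911). Of these 13 genes, 3 passed in every fit that left out 1 day 14 library, and 6 passed within the AY036118-high libraries (lost for Grn, Tfe3, Atp6v0a1, Ctsk, Ctss, Ctsh and Atp6ap1, adjusted p from 0.0597 to 0.166), 4 with that assignment as a term and 13 after GC trend removal. The number that lost the call is in brackets: it was lost without GSK library 4 (10), DMSO library 2 (9), GSK library 2 (6), DMSO library 1 (5), DMSO library 4 (5), GSK library 1 (5) and GSK library 3 (1), with adjusted p up to 0.177.

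Interleukin-1 and inflammasome genes were higher in the GSK group where they passed. Of 18 kept members (27.8% called, beside 10.8% over all kept genes), 5 rose and none fell by limma (1 fell and 8 rose at an unadjusted p under 0.05), with a median log2 change of 0.34. Casp1, which cleaves pro-interleukin-1β and gasdermin D, read 5.15, 4.87, 5.19 and 4.99 in DMSO libraries 1 to 4 and 6.26, 5.74, 6.20 and 6.54 in GSK libraries 1 to 4, a log2 change of 1.14 (SE 0.23, adjusted p = 0.00974). Casp4, which responds to cytosolic lipopolysaccharide, read 4.71, 5.08, 5.15 and 5.48 and 5.72, 5.94, 5.96 and 6.21, a log2 change of 0.85 (SE 0.20, adjusted p = 0.0166). Both caspases were expressed at low levels, and neither had overlapping groups. Casp1 lies at 5298517 to 5307265 and Casp4 at 5308828 to 5336783 on the plus strand of chromosome 9 in GRCm38, and their promoters are printed above. Il1b, the cytokine itself, was among the abundant genes and went from 13.48, 13.05, 13.16 and 13.24 to 14.11, 13.80, 13.71 and 14.05, a log2 change of 0.69 (SE 0.16, adjusted p = 0.0167). The sensors Nlrc4 (0.74) and Mefv, which encodes pyrin (0.62), were the other risers on the log2 scale. When 1 day 14 library was left out, 1 of these 5 genes kept the call throughout. It was lost, with the number of genes in brackets, without DMSO library 2 (4), GSK library 4 (4), GSK library 1 (3), DMSO library 4 (2), GSK library 3 (2), DMSO library 1 (1), DMSO library 3 (1) and GSK library 2 (1), with adjusted p up to 0.144, and 4 passed within the AY036118-high libraries (lost for Nlrc4, adjusted p = 0.139), 1 with that assignment as a term and 5 after GC trend removal.

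Other inflammatory signals did not move as a group. Of 24 kept CC and CXC chemokines (8.33% called, beside 10.8% over all kept genes), 1 rose and 1 fell: Ccl17, a ligand of CCR4 on T cells (0.71, SE 0.19, adjusted p = 0.0276), and Ccl4, described above. Of 40 Toll-like receptor and NF-kB pathway genes (12.5% called), 3 rose and 2 fell. Tlr7, a sensor of single-stranded RNA (0.65, SE 0.19, adjusted p = 0.0409), Tlr2, a sensor of bacterial lipopeptides (0.53, SE 0.16, adjusted p = 0.0476), and Il6 (0.70, SE 0.21, adjusted p = 0.0413) rose. The adaptor Ticam1 (-0.65, SE 0.15, adjusted p = 0.0167) and the cytokine gene Tnf (-0.61, SE 0.18, adjusted p = 0.0438) fell. Thus Il1b and Il6 were higher while Tnf and Ccl4 were lower in the same libraries. Il6 was expressed at a low level, with mean log2 values of 4.44 in the DMSO and 5.14 in the GSK libraries. Its call held only without DMSO library 3 when 1 day 14 library was left out. It was also lost by limma with the AY036118 assignment as a term (adjusted p = 0.0518) and after GC trend removal (adjusted p = 0.053). Of 38 interferon response genes (10.5% called), 2 rose and 2 fell, with the RNA sensor Ifih1 (0.68, SE 0.16, adjusted p = 0.0161) and Ifi44 (0.53, SE 0.15, adjusted p = 0.0338) higher and the interferon signalling factor Irf9 (-0.65, SE 0.14, adjusted p = 0.0111) and the antiviral gene Rsad2 (-0.59, SE 0.16, adjusted p = 0.0331) lower. The call held without each day 14 library in turn for 1 of these 11 genes. It did not hold, with the number of genes in brackets, without GSK library 4 (10), DMSO library 2 (8), DMSO library 4 (7), GSK library 3 (7), DMSO library 1 (6), GSK library 1 (6) and GSK library 2 (6) (adjusted p up to 0.167), and 6 passed within the AY036118-high libraries (lost for Tlr7, Tlr2, Rsad2, Ccl17 and Tnf, adjusted p from 0.0518 to 0.233), 3 with that assignment as a term and 7 after GC trend removal.

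Receptors at the cell surface split by gene rather than by family. Fcgr2b, the inhibitory Fc receptor, read 10.87, 10.87, 11.90 and 11.10 in the DMSO and 12.34, 12.17, 12.34 and 12.49 in the GSK libraries, a log2 change of 1.15 (SE 0.32, adjusted p = 0.0336). Fcgr4, an activating Fc receptor on the same chromosome, went the other way, from 14.04, 13.74, 13.20 and 13.59 to 12.74, 12.89, 12.89 and 12.66, a log2 change of -0.85 (SE 0.20, adjusted p = 0.0175). In DMSO library 3, Fcgr2b was highest and Fcgr4 lowest of the DMSO group, and the groups did not overlap for either gene. Of 35 kept Fc receptor and ITAM signalling genes, 5 rose and 1 fell, against a background of 10.8% called in either direction. The risers included the kinases Src (0.89, SE 0.20, adjusted p = 0.0151) and Fyn (0.81, SE 0.17, adjusted p = 0.0118) and the adaptor Blnk (0.79, SE 0.20, adjusted p = 0.026). Fcgr4 was the one that fell.

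Of 29 kept inhibitory receptors and co-stimulators (24.1% called, beside 10.8% over all kept genes), 4 fell and 3 rose. Of 18 kept C-type lectins (33.3% called), 4 fell and 2 rose, with a median of 0.00. Clec12a, an ITIM-bearing receptor for dead cells that is on both lists, read 9.35, 9.27, 8.34 and 8.70 in the DMSO and 7.57, 8.19, 7.74 and 8.03 in the GSK libraries, a log2 change of -1.03 (SE 0.21, adjusted p = 0.0103). The C-type lectin Clec4a1 went from 12.37, 12.18, 11.77 and 11.80 to 10.99, 11.23, 11.11 and 10.74, a log2 change of -1.01 (SE 0.18, adjusted p = 0.00548), and Siglece, a sialic acid-binding inhibitory receptor, from 6.13, 6.67, 5.55 and 6.46 to 5.29, 5.38, 5.29 and 4.85, where it fell by 1.00 on the log2 scale (SE 0.22, adjusted p = 0.0132). No GSK library reached the DMSO range for any of the 3 genes. Cd300a (-0.68, SE 0.16, adjusted p = 0.0163) and Cd300lf (-0.44, SE 0.13, adjusted p = 0.0427) also fell, while the co-stimulator Cd86 (0.80, SE 0.22, adjusted p = 0.0304) and the checkpoint receptor Havcr2 (0.58, SE 0.16, adjusted p = 0.0343) rose. The activating C-type lectin Clec5a rose (0.60, SE 0.15, adjusted p = 0.0195). Of these 13 receptor and adaptor genes, 2 passed in every fit that left out 1 day 14 library, and 10 passed within the AY036118-high libraries (lost for Siglece, Blnk and Cd300lf, adjusted p from 0.0826 to 0.2), 4 with that assignment as a term and 13 after GC trend removal. The number that lost the call is in brackets: it was lost without GSK library 4 (11), DMSO library 2 (9), GSK library 1 (6), DMSO library 4 (5), DMSO library 1 (4), GSK library 3 (4) and GSK library 2 (1), with adjusted p up to 0.163.

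Antigen presentation and growth factor receptor genes gave further risers and some fallers. In the MHC class II pathway (28.6% called, beside 10.8% over all kept genes), 4 of 14 kept genes rose and none fell by limma (3 fell at an unadjusted p under 0.05), with a median of 0.07. The risers were Ifi30, the thiol reductase that unfolds antigens (1.10, SE 0.25, adjusted p = 0.0158), the class II chain H2-Eb1 (0.93, SE 0.23, adjusted p = 0.0224), the transcription factor subunit Rfxap (0.62, SE 0.15, adjusted p = 0.0196) and Ctss, already given. The very abundant Cd74 did not pass but was lower without overlap between groups (-0.47, limma adjusted p = 0.0799). The class II chain H2-Ab1 did not pass either (0.09, adjusted p = 0.725). Within the AY036118-high libraries, 1 member of this list passed as higher and 1 as lower, the latter Cd74 (-0.62, adjusted p = 0.0373). Csf2ra, the ligand-binding chain of the GM-CSF receptor, read 9.34, 8.41, 9.51 and 8.66 in the DMSO and 10.09, 9.76, 10.03 and 10.55 in the GSK libraries, a log2 change of 1.13 (SE 0.24, adjusted p = 0.0121). The DMSO libraries split into a higher pair (1 and 3) and a lower pair (2 and 4), and the higher pair lay closer to the GSK range. In the AY036118-high libraries, to which that higher pair belongs, the log2 change was 0.68 (adjusted p = 0.0565). Csf2rb2, a signalling chain of the interleukin-3 receptor that shares 30.1% of its words with other genes, read 5.14, 4.76, 4.95 and 5.31 and 6.86, 6.11, 6.48 and 7.38, a log2 change of 1.67 (SE 0.25, adjusted p = 0.00254). Reads of Csf2rb2 may therefore belong partly to a copy. Of 36 kept colony-stimulating factor and cytokine receptor genes (16.7% called), 4 rose and 2 fell. The kinase Jak2 (0.65, SE 0.19, adjusted p = 0.0396) and the feedback inhibitor Socs2 (0.55, SE 0.17, adjusted p = 0.0476) rose, and Jak3 (-0.57, SE 0.13, adjusted p = 0.0152) and the interleukin-10 receptor chain Il10ra (-0.64, SE 0.17, adjusted p = 0.0292) fell. When 1 day 14 library was left out, 1 of these 9 called genes kept the call throughout. It was lost, with the number of genes in brackets, without GSK library 4 (8), DMSO library 2 (7), GSK library 1 (5), DMSO library 1 (3), DMSO library 4 (3), GSK library 2 (3), GSK library 3 (2) and DMSO library 3 (1), with adjusted p up to 0.146, and 4 passed within the AY036118-high libraries (lost for Rfxap, Csf2ra, Il10ra, Socs2 and H2-Eb1, adjusted p from 0.0519 to 0.159), 4 with that assignment as a term and 7 after GC trend removal.

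The ROCK and actin system of the macrophages was examined because the tumour cells had been exposed to a ROCK inhibitor. Of 39 kept ROCK pathway and actomyosin genes (23.1% called, beside 10.8% over all kept genes), 4 rose and 5 fell, with a median of 0.08. Rhob, an immediate-early GTPase on endosomes, read 10.49, 10.65, 10.33 and 10.63 in DMSO libraries 1 to 4 and 9.80, 9.78, 9.64 and 9.47 in GSK libraries 1 to 4, a log2 change of -0.85 (SE 0.12, adjusted p = 0.0019). Rhoc, a GTPase linked to cell movement, read 11.12, 10.84, 11.10 and 11.11 and 10.01, 10.31, 10.38 and 9.91, a log2 change of -0.89 (SE 0.16, adjusted p = 0.00623). Every GSK library was below every DMSO library for both GTPases. Rhoa (-0.74, SE 0.13, adjusted p = 0.00608) and the myosin light chain Myl6 (-0.69, SE 0.18, adjusted p = 0.0241) fell and the actin-severing cofilin Cfl1 (1.03, SE 0.24, adjusted p = 0.0153) rose, but 10.8%, 11.4% and 22.6% of their words are shared with other genes. The membrane-actin linker Msn fell (-0.75, SE 0.21, adjusted p = 0.0343), and the formins Diaph1 (0.73, SE 0.17, adjusted p = 0.0183) and Diaph2 (0.56, SE 0.15, adjusted p = 0.0289), actin nucleators that such GTPases activate, rose. Rock1 read 9.32, 9.60, 9.58 and 9.35 in the DMSO and 9.68, 9.92, 9.85 and 10.22 in the GSK libraries and passed (log2 change 0.46, SE 0.13, adjusted p = 0.0379), while Rock2 read 8.52, 9.16, 8.98 and 8.98 and 8.94, 8.84, 8.82 and 9.16 and did not (log2 change 0.03, SE 0.14, adjusted p = 0.926). The rise of Rock1 was not past the threshold within the AY036118-high libraries (adjusted p = 0.0884) or once the GC trend of every library had been removed (adjusted p = 0.0593). Of 46 actin polymerisation and motility genes (13% called), 4 rose and 2 fell. Cap1 led the risers, and the filamin Flna, which crosslinks actin filaments, fell (-0.66, SE 0.16, adjusted p = 0.0203). The call held without each day 14 library in turn for 4 of these 11 called genes. It did not hold, with the number of genes in brackets, without GSK library 4 (7), DMSO library 2 (6), DMSO library 1 (5), DMSO library 4 (5), GSK library 2 (3), GSK library 3 (3) and GSK library 1 (1) (adjusted p up to 0.151), and 6 passed within the AY036118-high libraries (lost for Cfl1, Myl6, Msn, Rock1 and Diaph2, adjusted p from 0.0519 to 0.12), 4 with that assignment as a term and 10 after GC trend removal.

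Lists of transcription factors had calls in both directions. Of 205 kept Zfp zinc finger genes (2.93% called, beside 10.8% over all kept genes), 4 rose and 2 fell. Of 30 kept myeloid transcription factors, 3 fell and none rose by limma (4 rose and 5 fell at an unadjusted p under 0.05), which is 10% called beside 10.8% over all kept genes. The fallers with unique sequence were Tfe3 and Nr1h3, the liver X receptor alpha (-0.62, SE 0.19, adjusted p = 0.0441). Of 11 kept Kruppel-like factors (9.09% called), Klf2 was the only one past the threshold. The median log2 change of the list was 0.13. Of 24 AP-1 and immediate-early genes (20.8% called), 1 rose and 4 fell, including Mafk, the survival gene Ier3 (-0.50, SE 0.14, adjusted p = 0.0306) and Ier5 (-0.63, SE 0.18, adjusted p = 0.0376). Dusp5, a nuclear phosphatase of ERK kinases that shares 21.2% of its words with other genes, fell (-1.41, SE 0.27, adjusted p = 0.00757). Among chromatin regulators, 3 of 74 rose and 7 fell (13.5% called). Suz12, a core subunit of Polycomb repressive complex 2, went from 9.74, 10.01, 9.39 and 10.01 in the DMSO to 8.94, 9.08, 8.93 and 8.67 in the GSK libraries, a log2 change of -0.88 (SE 0.17, adjusted p = 0.00749). Brd2, which reads acetylated histones, went from 9.16, 8.69, 9.09 and 9.05 to 9.83, 9.45, 9.69 and 9.86, a log2 change of 0.71 (SE 0.13, adjusted p = 0.00633). Of these 9 genes, 6 passed in every fit that left out 1 day 14 library, and 6 passed within the AY036118-high libraries (lost for Tfe3, Ier5 and Nr1h3, adjusted p from 0.0642 to 0.193), 7 with that assignment as a term and 8 after GC trend removal. The number that lost the call is in brackets: it was lost without DMSO library 1 (3), DMSO library 2 (3), DMSO library 4 (3), GSK library 1 (3), GSK library 2 (3), GSK library 3 (3) and GSK library 4 (3), with adjusted p up to 0.172.

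Of 35 kept glycolysis, glycogen and lactate genes, 4 fell and none rose by limma (2 rose at an unadjusted p under 0.05), with a median of -0.02. This is 11.4% called, beside 10.8% over all kept genes. The 4 were Slc16a3 and Gys1, given above, Pfkl, the liver-type phosphofructokinase (-0.73, SE 0.15, adjusted p = 0.00911), and Pygb, a glycogen phosphorylase (-0.63, SE 0.18, adjusted p = 0.0344). Glycogen synthase and a glycogen phosphorylase thus fell together. Of 25 hypoxia response genes (4% called), 1 fell, the prolyl hydroxylase P4ha2 (-0.51, SE 0.15, adjusted p = 0.0427), and none rose by limma (4 rose at an unadjusted p under 0.05). Of 23 kept sterol genes (13% called), 3 fell and none rose by limma (0 rose at an unadjusted p under 0.05), among them the synthetic enzymes Msmo1 (-0.56, SE 0.14, adjusted p = 0.026) and Cyp51 (-0.58, SE 0.16, adjusted p = 0.0345). The cholesterol exporter Abca1 rose (0.54, SE 0.14, adjusted p = 0.026), and the lipoprotein receptor Lrp1 fell (-0.58, SE 0.12, adjusted p = 0.00925). In lipid handling, lipoprotein lipase Lpl (0.81, SE 0.24, adjusted p = 0.0408) and the mitochondrial dehydrogenase Acadm (0.71, SE 0.17, adjusted p = 0.0201) rose, and the lipid droplet coat gene Plin2 (-0.48, SE 0.11, adjusted p = 0.0161) fell. Of 18 kept iron and heme genes (22.2% called), 3 rose and 1 fell. The ferritin chains went in opposite directions: the heavy chain gene Fth1 rose (1.01, SE 0.26, adjusted p = 0.0271) and the light chain gene Ftl1, which shares 64.1% of its words with other genes, fell (-0.56, SE 0.17, adjusted p = 0.0471). The iron regulator Hfe (0.84, SE 0.22, adjusted p = 0.026) and thioredoxin Txn1 (0.97, SE 0.27, adjusted p = 0.0317) rose, while the mitochondrial thioredoxin Txn2 (-0.61, SE 0.16, adjusted p = 0.0241) fell. When 1 day 14 library was left out, 3 of these 17 genes kept the call throughout. It was lost, with the number of genes in brackets, without GSK library 4 (13), DMSO library 2 (11), DMSO library 1 (10), DMSO library 4 (8), GSK library 2 (8), GSK library 3 (7), GSK library 1 (5) and DMSO library 3 (2), with adjusted p up to 0.155, and 11 passed within the AY036118-high libraries (lost for Pygb, Abca1, P4ha2, Fth1, Hfe and Cyp51, adjusted p from 0.0521 to 0.184), 6 with that assignment as a term and 14 after GC trend removal.

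Respiratory chain genes are given by the genome that encodes them. Of 13 genes encoded in mitochondrial DNA (38.5% called, beside 10.8% over all kept genes), 5 rose and none fell by limma (0 fell at an unadjusted p under 0.05), with a median log2 change of 0.88. Of 78 kept subunits encoded in the nucleus (20.5% called), 8 rose and 8 fell, with a median of 0.03. mt-Cytb, the cytochrome b of complex III, read 11.44, 10.85, 11.56 and 11.44 in the DMSO and 12.35, 11.83, 12.31 and 12.80 in the GSK libraries, a log2 change of 1.00 (SE 0.20, adjusted p = 0.00835). mt-Nd6, a complex I subunit transcribed from the opposite strand, read 8.18, 8.39, 8.94 and 8.11 and 9.65, 9.30, 9.18 and 9.78, a log2 change of 1.07 (SE 0.18, adjusted p = 0.00512). Summed over the mitochondrially encoded genes, the unlogged level was 55572 to 70035 in the DMSO and 64618 to 104886 in the GSK libraries, so the ranges overlapped. Only 4 of these 13 genes share under 10% of their words with other genes. Among the nuclear subunits, Cox7b read 7.46, 6.66, 7.84 and 7.04 in the DMSO and 9.02, 8.37, 9.04 and 9.47 in the GSK libraries, a log2 change of 1.72 (SE 0.28, adjusted p = 0.00454), and Uqcrfs1 (0.52, SE 0.13, adjusted p = 0.0203) and Sdhc (0.64, SE 0.19, adjusted p = 0.0433) also rose. Ndufa3 (-0.64, SE 0.17, adjusted p = 0.0288), Ndufa2 (-0.62, SE 0.18, adjusted p = 0.0354), Uqcrh (-0.62, SE 0.16, adjusted p = 0.0239) and Ndufs7 (-0.45, SE 0.13, adjusted p = 0.042) fell. The call held without each day 14 library in turn for 3 of these 9 genes. It did not hold, with the number of genes in brackets, without DMSO library 2 (6), GSK library 4 (6), DMSO library 1 (5), GSK library 1 (5), DMSO library 4 (4), GSK library 2 (4), GSK library 3 (2) and DMSO library 3 (1) (adjusted p up to 0.158), and 5 passed within the AY036118-high libraries (lost for Uqcrfs1, Uqcrh, Ndufa2 and Ndufa3, adjusted p from 0.0516 to 0.0718), 3 with that assignment as a term and 8 after GC trend removal.

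Several protein complexes held subunits that moved in opposite directions. In the coatomer, the coat of vesicles that return from the Golgi to the endoplasmic reticulum, Copa read 8.25, 8.46, 8.78 and 8.53 in the DMSO and 9.80, 9.64, 9.79 and 10.04 in the GSK libraries, a log2 change of 1.31 (SE 0.21, adjusted p = 0.0038). Copz1, a partner subunit of the same coat, read 11.95, 11.78, 11.26 and 11.82 and 10.88, 10.94, 11.11 and 10.24, a log2 change of -0.91 (SE 0.22, adjusted p = 0.0214). Of 9 coatomer genes, 2 rose and 2 fell. In the proteasome ring of alpha subunits, Psma2 went from 10.06, 8.97, 9.79 and 9.60 to 10.54, 10.42, 10.57 and 10.66 (log2 change 0.94, SE 0.20, adjusted p = 0.0118) and Psma1 from 7.21, 6.99, 7.54 and 7.57 to 7.99, 8.11, 8.12 and 8.66 (log2 change 0.89, SE 0.20, adjusted p = 0.0135). Psma6 of the same ring fell from 12.14, 12.30, 11.81 and 11.97 to 11.12, 11.21, 11.19 and 10.90, a log2 change of -0.95 (SE 0.16, adjusted p = 0.00472). Over the whole proteasome list, 5 of 46 rose and 8 fell (28.3% called, beside 10.8% over all kept genes). In the CCT chaperonin, which folds actin and tubulin, Cct2 rose (0.87, SE 0.21, adjusted p = 0.0195), and Cct5 (-0.77, SE 0.16, adjusted p = 0.0112), Cct7 (-0.74, SE 0.20, adjusted p = 0.0285) and Cct8 (-0.53, SE 0.12, adjusted p = 0.0158) fell. These 3 complexes were picked out of longer lists after their values were seen. Of 80 splicing genes (17.5% called), 8 rose and 6 fell, and the large nuclear speckle proteins Srrm2 (0.91, SE 0.15, adjusted p = 0.00462) and Son (0.75, SE 0.14, adjusted p = 0.00741) were both higher. Of these 11 genes, 4 passed in every fit that left out 1 day 14 library, and 8 passed within the AY036118-high libraries (lost for Cct8, Copz1 and Cct7, adjusted p from 0.0651 to 0.0923), 7 with that assignment as a term and 11 after GC trend removal. The number that lost the call is in brackets: it was lost without GSK library 4 (7), DMSO library 2 (5), DMSO library 1 (2), DMSO library 4 (2) and GSK library 2 (1), with adjusted p up to 0.115.

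**Figure D3:**
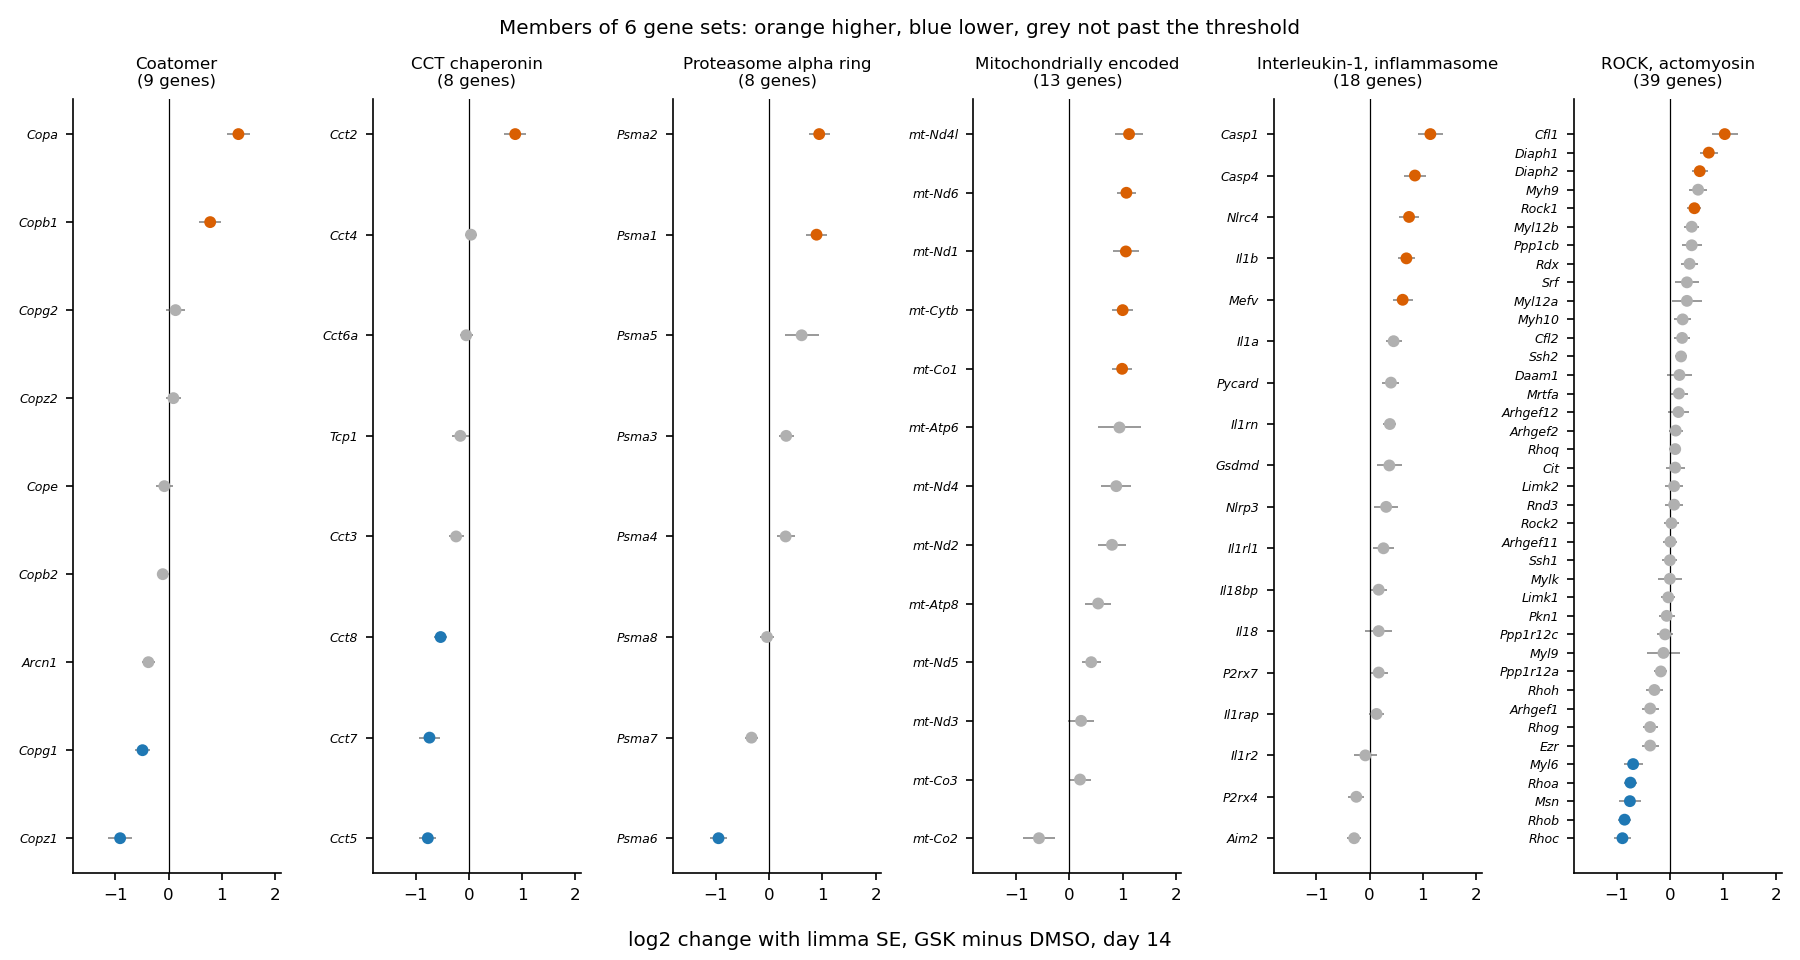
Day 14 log2 change (x axis, GSK minus DMSO) of each kept subunit of 6 gene sets, one point per gene with its limma standard error as a bar; orange is higher and blue lower past the threshold, grey is not past it. The coatomer, chaperonin and proteasome alpha subunits lie on both sides of 0, whereas 12 of the 13 mitochondrially encoded genes lie above it.

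**Figure D4:**
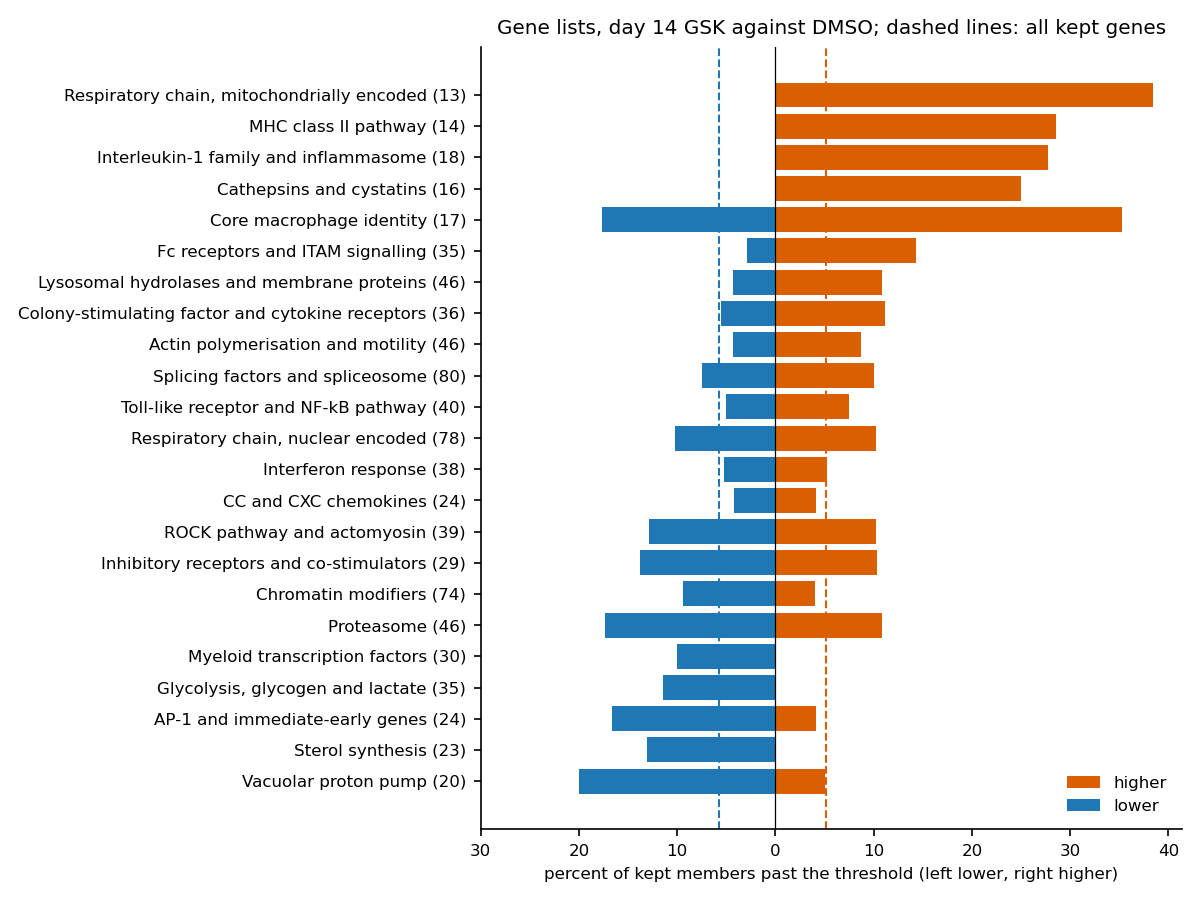
Percent of kept members of each gene list that rose (orange, right) or fell (blue, left) past the threshold, with the number of kept members beside each name. Dashed lines mark the background over all 11886 kept genes, 5.1% higher and 5.73% lower. The mitochondrially encoded, MHC class II, interleukin-1 and cathepsin lists have bars on the right side only, and the sterol, glycolysis and myeloid transcription factor lists on the left side only.

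A further set of genes was picked after the values were seen, from the 117 unique-sequence calls that passed without each day 14 library in turn. The phagocyte receptor Cd93 (-0.97, SE 0.14, adjusted p = 0.00233) and the kinase Mapk3, or ERK1 (-0.95, SE 0.20, adjusted p = 0.0101), fell. The vitamin D receptor Vdr (0.85, SE 0.17, adjusted p = 0.00818), the insulin receptor substrate Irs2 (0.82, SE 0.15, adjusted p = 0.00548), the G protein regulator Rgs1 (1.09, SE 0.17, adjusted p = 0.0038), the orphan receptor Gpr171 (1.07, SE 0.19, adjusted p = 0.00548) and the formin Fmnl2 (0.94, SE 0.17, adjusted p = 0.00601) rose. Of 21 kept lipid-associated macrophage genes (28.6% called, beside 10.8% over all kept genes), 4 rose and 2 fell, and of 10 kept S100 genes (30% called), 1 rose and 2 fell. Anxa2 (-0.85, SE 0.14, adjusted p = 0.00472) from the former list and S100a10 (-0.57, SE 0.12, adjusted p = 0.00987) from the latter, whose products form a heterotetramer at the plasma membrane, fell together and belong to the same 117.

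Of 46 kept markers of cell types other than macrophages, 1 passed, beside 10.8% called over all kept genes. It was the immunoglobulin kappa constant gene Igkc (-0.57, SE 0.17, limma adjusted p = 0.0476). Its call was lost within the AY036118-high libraries (adjusted p = 0.0533) and without any 1 of 7 day 14 libraries, all but GSK library 1 (adjusted p up to 0.137). The groups did not overlap for 2 epithelium markers and 1 dendritic cell marker, all lower. Nor did they overlap for 3 fibroblast markers and 1 eosinophil, basophil and mast cell marker, all higher. Over all kept genes, 22% had groups that did not overlap. Some of the 46 markers were well expressed: the mean log2 value was 11.08 in the DMSO and 10.49 in the GSK libraries for the neutrophil gene Retnlg, and 10.10 and 9.63 for the endothelial adhesion gene Pecam1. Summed unlogged levels of the 4T1 epithelium markers were 1339 to 2092 in the DMSO and 1239 to 1717 in the GSK libraries, with Cldn3, Elf3, Esrp1 and Trp63 below the expression filter. For neutrophil markers they were 2175 to 2618 and 1314 to 2471, and for endothelial markers 1426 to 2033 and 1302 to 1667. All these summed ranges overlapped. Of the 10 kept epithelium markers, however, only 1 had a log2 change above 0 (median -0.28). It was Cdh1 (0.16, limma adjusted p = 0.585), the most abundant marker in that sum. The mean log2 value of these markers was lower in every GSK library (4.94 to 5.13 against 5.21 to 5.66). Dendritic cell markers summed to 461 to 673 in the DMSO and 297 to 428 in the GSK libraries, so this sum was lower in every GSK library, while Flt3, Clec9a, Cd209a and Itgae were below the filter. Eosinophil, basophil and mast cell markers summed to 140 to 190 and 160 to 207, with Epx below the filter, beside the rise of Rnase2a. The sums of T and NK cell markers (52.3 to 58.9 and 54.6 to 67.7), B and plasma cell markers (118 to 177 and 114 to 139) and fibroblast markers (162 to 195 and 173 to 243) overlapped. The part of other cells in the results was not tested, and in RNA from a mixture a smaller number of cells of a type cannot be told apart from less RNA per cell.

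On day 8 the same comparison called few genes, 23 of 11886 (0.194%), with 3 libraries in each group. The day 14 change differed from the day 8 change for 1 gene by limma (0.00841% of genes, 987 at an unadjusted p under 0.05), the ribosomal protein pseudogene Rps6-ps4, which shares all its words with other genes. Of the 409 higher unique-sequence genes, 338 (82.6%) were also above 0 on day 8, with a median log2 change of 0.24. Of the 432 lower ones, 399 (92.4%) were below 0, with a median of -0.36. Among unique-sequence genes not past the day 14 threshold, 55% were above 0 on day 8. Slc17a9 passed on day 8 as well, at -1.84 (SE 0.26, adjusted p = 0.0311) beside -1.08 on day 14. Klf2 did not pass on day 8, where its log2 change was -1.20 (SE 0.27, adjusted p = 0.0613) beside -1.25 on day 14, and neither did Tiparp, at 1.13 (SE 0.32, adjusted p = 0.111) beside 1.26. For Cox7b the day 8 value was 0.02 (SE 0.33, adjusted p = 0.984) beside 1.72 on day 14. For Casp1 it was 0.11 (SE 0.27, adjusted p = 0.88) beside 1.14, and for Clec12a 0.25 (SE 0.25, adjusted p = 0.654) beside -1.03. The interaction of none of these 6 genes passed (adjusted p = 0.504 for Cox7b, 0.511 for Casp1 and 0.504 for Clec12a), so their day 14 changes are not shown to differ from those on day 8.

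**Figure D5:**
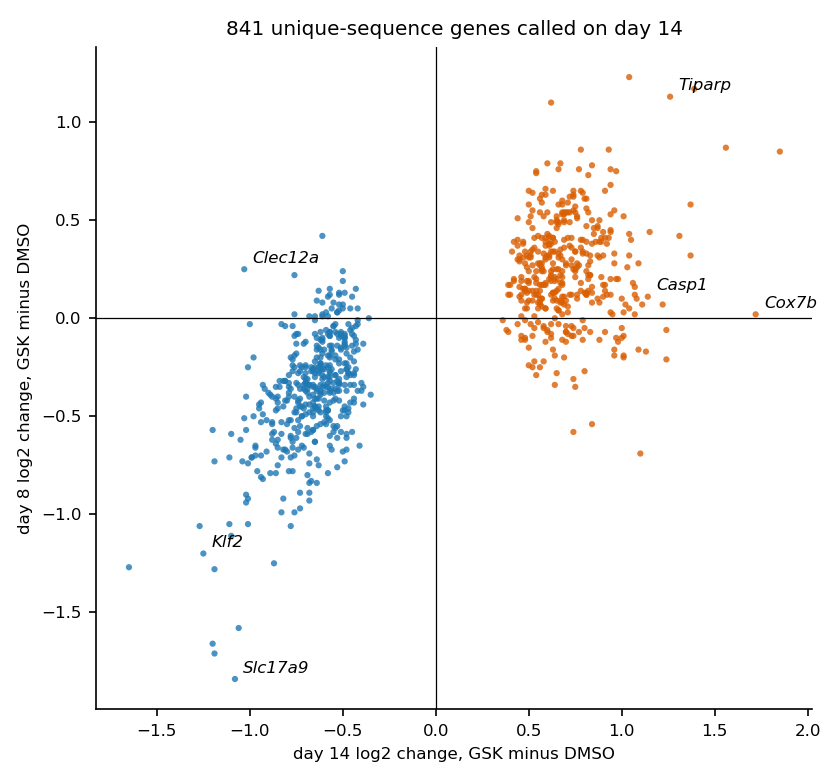
Day 8 log2 change (y axis) against day 14 log2 change (x axis) for the 841 unique-sequence protein-coding genes called on day 14, with the genes named in the text labelled. Most points lie in the quadrants of equal sign, 338 of 409 higher and 399 of 432 lower genes.

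The called genes also differed in properties that the comparison did not use. The median GC content of the longest annotated transcript was 46.2% for the higher, 53.1% for the lower and 49.5% for the other unique-sequence genes. Among the 1634 genes with the lowest GC content, 7.34% were higher and 2.51% lower, and among the 1629 with the highest GC content 2.52% were higher and 9.76% lower. Without DMSO library 1 these shares were 3.92% and 2.26% in the lowest and 2.52% and 5.65% in the highest set. The median deviation of low-GC genes minus that of high-GC genes was -0.34, -0.01, -0.01 and -0.07 on the log2 scale in DMSO libraries 1 to 4 and 0.09, 0.09, 0.02 and 0.20 in GSK libraries 1 to 4. It was higher in every GSK library than in any DMSO library, and DMSO library 1 stood farthest from the others. The median transcript length was 3747 bases for the higher and 2898 bases for the lower genes. Once the GC trend of every library had been removed, 329 of the 409 higher and 362 of the 432 lower genes passed. The part of base composition in the other calls was not tested.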

How the data were processed

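RNA was sequenced from 14 macrophage libraries (4 DMSO and 4 GSK on day 14, 3 and 3 on day 8). The deposited table holds normalised values on a log2 scale. Per the submitters' processing notes, Bowtie2, RSEM 1.2.29 and DESeq2 1.12.4 were used, with mm10 and GRCh38 named as builds, and the transformation is not given in the sources used here. Fold changes of low genes may therefore be shrunken. Each column was matched to its library by the name in the sample labels. Ensembl identifiers were matched to GENCODE M21 (GRCm38), and 73 of 24556 had no match. All 14 libraries were fitted together in limma 3.58.1 (R 4.3.3), with a mean for each of 4 groups and eBayes run with a trend. The contrasts were GSK minus DMSO on day 14, the same on day 8, and their difference, all two-sided with Benjamini-Hochberg adjustment over the 11886 kept genes and a threshold of 0.05. Sharing of 31-base words on either strand was counted over all transcripts, and GC content and length come from the longest transcript of each gene. The fit was tested on simulated data with 11886 genes, where 81% of 200 genes changed by 1 on the log2 scale were recovered and 6.36% of calls were false. The simulated noise was drawn independently for each gene and library. The 6.36% therefore does not cover differences shared across a whole library, such as the GC trend or the AY036118 assignment. Genes named are the 15 largest risers and 15 largest fallers with unique sequence, no overlap between groups and an unlogged mean of at least 50, up to 6 called members and the 2 most abundant members of each gene list, and 10 genes always taken, of which part is given. Further genes are said to be chosen after their values were seen. Some members that the rule names are not reported here. Members and gene lists were chosen with earlier results of these data known, so lists are described by counts and medians without a test. SE is the limma standard error. The other settings tried are given in the closing section. Promoter sequences are RefSeq windows of GRCm38.p6. Figures and tables used Python 3.11.15.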

Additional observations from a re-analysis of the deposited data

Results flagged for a closer look

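For each of the genes given in the text, the 4 DMSO and the 4 GSK libraries of day 14 were checked for a library whose gap to the nearest other, divided by the group's range, was above Dixon's critical value for a group of 4. Of 328 groups, 15 held such a library, and chance alone flags about 1 in 20. In DMSO library 1 the log2 values standing apart were Igkc at 5.69 (others 4.99 to 5.07) and Pfkl at 9.47 (others 9.64 to 9.67). In DMSO library 2 the log2 values standing apart were Rhoc at 10.84 (others 11.10 to 11.12). In DMSO library 3 the log2 values standing apart were Atp2a3 at 8.14 (others 9.15 to 9.25), Gys1 at 9.10 (others 9.88 to 10.02), Laptm5 at 14.32 (others 14.92 to 15.03) and Tmed9 at 10.08 (others 9.86 to 9.89). In DMSO library 4 the log2 values standing apart were Mefv at 7.10 (others 7.29 to 7.30). In GSK library 3 the log2 values standing apart were Mefv at 7.67 (others 7.91 to 7.94) and Rhoa at 10.15 (others 9.93 to 9.95). In GSK library 4 the log2 values standing apart were Ctss at 15.08 (others 14.83 to 14.83), Fmnl2 at 8.39 (others 8.01 to 8.07), Ifih1 at 7.92 (others 7.40 to 7.47), Nr1h3 at 7.74 (others 8.26 to 8.30) and Slc6a6 at 10.03 (others 9.50 to 9.56). The cause of these values was not tested.

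The change of the pseudogene Rps6-ps4 differed between the days. The day 14 log2 change minus the day 8 log2 change was 5.09 (limma interaction, adjusted p = 1.86e-06), from a day 14 change of 6.59 (SE 0.24, adjusted p = 4.52e-11) and a day 8 change of 1.50 (SE 0.27). All its words are shared with other genes, so the locus from which these reads came is not known.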

How the results depend on the processing

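The 1287 day 14 calls became 540 with no filter on low values, 2373 with library quality weights, 362 with the ribosomal RNA assignment as a term and 384 when the mean of the 4T1 epithelium markers entered the model. Leaving out 1 library at a time gave 221 to 1628. The interaction, 1 gene, gave 4 with a replicate block, 0 when genes with shared sequence were left out (limma, 714 at an unadjusted p under 0.05) and 1 to 12 when 1 library was left out (2 when DMSO library 1 of day 8 was left out, 8 for GSK library 2 of day 14, 12 for its library 1). The cause of these shifts was not tested beyond what each setting changes by construction. The deviations of same-numbered day 14 libraries had correlations of -0.0198, 0.171, -0.156 and -0.0917, and those of unlike-numbered libraries -0.149 to 0.28. So few correlations cannot settle whether the numbers pair the libraries. The replicate block gave 1087 day 14 calls, 1017 of them shared. The remaining settings (a minimum of 50, a pseudocount of 10, TMM, quantile normalisation, no trend, GC trend removal, day 14 libraries alone, AY036118-high libraries) gave 860 to 1882 calls. Reversed values were seen for genes that had not passed: Csf1r read -0.02 within the AY036118-high libraries, and Rock2 -0.06 with quality weights, -0.08 after GC trend removal, and from -0.10 to 0.11 when 1 day 14 library was left out. Depth is unknown, so counting error cannot be given.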

Other observations

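Further gene groups of the day 14 comparison split between risers and fallers. In the early secretory pathway, 7 of 65 kept genes rose and 3 fell (15.4% called, beside 10.8% over all kept genes). The inner coat cargo adaptors Sec24a (0.84, SE 0.15, adjusted p = 0.00608) and Sec24d (0.56, SE 0.14, adjusted p = 0.0247) and the cargo receptor Tmed9 (0.57, SE 0.14, adjusted p = 0.0239) rose, while Sar1a, the GTPase that starts assembly of the same coat, fell (-0.57, SE 0.13, adjusted p = 0.0166). Of 34 autophagy genes (26.5% called), 4 rose and 5 fell. The initiating kinases Ulk1 (0.55, SE 0.13, adjusted p = 0.0171) and Ulk2 (0.53, SE 0.15, adjusted p = 0.0308) and the conjugation protein Atg12 (0.71, SE 0.16, adjusted p = 0.014) rose, and the lipid transfer protein Atg2a (-0.81, SE 0.17, adjusted p = 0.0114), the initiation subunit Atg101 (-0.74, SE 0.18, adjusted p = 0.0219) and the protease Atg4b (-0.65, SE 0.16, adjusted p = 0.0192) fell.

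Of 48 kept cell cycle and DNA replication genes (12.5% called, beside 10.8% over all kept genes), 3 rose and 3 fell, with a median log2 change of 0.07. The helicase subunit Mcm4 (0.88, SE 0.14, adjusted p = 0.00427), the licensing inhibitor Gmnn (0.82, SE 0.18, adjusted p = 0.014) and the kinase inhibitor Cdkn1b (0.65, SE 0.19, adjusted p = 0.0438) rose. The licensing factor Cdt1 (-0.46, SE 0.13, adjusted p = 0.0353), which Gmnn binds and blocks, and the cyclins Ccnd3 (-0.77, SE 0.17, adjusted p = 0.012) and Ccnd2 (-0.66, SE 0.18, adjusted p = 0.0312) fell. Of 182 solute carriers (12.1% called), 9 rose and 13 fell, with the taurine transporter Slc6a6 (0.86, SE 0.19, adjusted p = 0.0133) higher and the Golgi sulfate donor transporter Slc35b2 (-0.99, SE 0.18, adjusted p = 0.00548) lower. When 1 day 14 library was left out, 3 of these 18 genes kept the call throughout. It was lost, with the number of genes in brackets, without GSK library 4 (15), DMSO library 2 (11), GSK library 1 (7), DMSO library 4 (6), DMSO library 1 (4), GSK library 3 (4), GSK library 2 (3) and DMSO library 3 (1), with adjusted p up to 0.159, and 12 passed within the AY036118-high libraries (lost for Ulk1, Slc6a6, Sar1a, Ccnd2, Atg101 and Cdt1, adjusted p from 0.055 to 0.125), 7 with that assignment as a term and 16 after GC trend removal.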
